A study of Homo sapiens with 4 samples.

Results

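The nuclear-encoded subunits of the respiratory chain were followed in NK-92, a human natural killer (NK) cell line, after knockdown of ADAR1. The members were the genes whose symbols begin with NDUFA, NDUFB, NDUFC, NDUFS, NDUFV, UQCR, COX4I, COX5, COX6, COX7, COX8 or ATP5, together with SDHA, SDHB, SDHC, SDHD and CYC1. Assembly factors with NDUFAF symbols and readthrough genes with a hyphen were left out. This gave 89 of the 20323 genes in the deposited table, of which 37 belong to complex I, 4 to complex II, 10 to complex III, 19 to complex IV and 19 to complex V. NDUFA4, which carries a complex I name, was counted with complex IV. A filter on low counts kept 80 of the 89 members among 11810 genes tested.

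The respiratory chain sits in the inner mitochondrial membrane. Complex I (NADH dehydrogenase) and complex II (succinate dehydrogenase) pass electrons to ubiquinone, complex III hands them to cytochrome c, complex IV (cytochrome c oxidase) gives them to oxygen, and complex V (ATP synthase) uses the proton gradient to make ATP. Most subunits are made from nuclear genes and imported, while a small core is encoded in mitochondrial DNA (mtDNA), so each complex apart from complex II is built from both genomes. NK cells draw on oxidative phosphorylation when they are activated and when they proliferate.

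Both groups were made by lentiviral transduction of the same line in the presence of polybrene. The controls, called NK scramble, received a scrambled hairpin (shscramble), and the knockdown cells, called NK shADAR1, received 1 that targets ADAR1. All were cultured with IL-2 at 100 IU/ml, and mRNA was enriched with oligo(dT) beads. Each group had 2 libraries, described as biological replicates. The labels number the knockdown libraries shADAR1-1 and shADAR1-2, and the same names serve for hairpins elsewhere in the study. The paper states that the cells sequenced were NK scramble and NK shADAR1-2 cells, which names a single ADAR1 hairpin. The numbers in the labels were therefore read as replicate numbers. The estimated counts, which are the reads assigned to each gene, summed to 39529705 and 39960491 in NK scramble libraries 1 and 2 and to 37881704 and 38552577 in NK shADAR1 libraries 1 and 2. Levels are given below as CPM (counts scaled to a common library size by TMM) between libraries and as FPKM (scaled for transcript length too) between genes.

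ADAR, the targeted gene, was at 655 and 682 CPM in NK scramble libraries 1 and 2 and at 575 and 482 CPM in NK shADAR1 libraries 1 and 2. The paper reports the knockdown of ADAR1 in NK shADAR1 cells by qRT-PCR and western blotting. In these counts both knockdown libraries were below the controls, with a log2 fold change of -0.34 (SE 0.20). Neither this gene nor any other passed edgeR's quasi-likelihood test after adjustment (adjusted p = 1.00 for ADAR). For ADAR, leaving out NK shADAR1 library 1 gave -0.47 and leaving out NK shADAR1 library 2 gave -0.22. The cell line was checked against 12 NK markers, all of which were detected and tested, with a median log2 fold change of 0.06. NKG7, a membrane protein of cytotoxic granules, had 1742 to 2081 FPKM and NCAM1, which encodes CD56, 154 to 202 FPKM. Of 7 T cell markers, CD3E and TRAC were also expressed, CD3E at 396 to 554 FPKM and TRAC at 104 to 139 FPKM, whereas CD8A and CD8B were listed at 0 in all 4 libraries. Of 5 B cell markers, 2 were tested, CD79A and PAX5, the latter at 2.17 to 5.34 FPKM, while MS4A1 was listed at 0 throughout. Of 6 myeloid markers, 2 were tested, CSF1R and ITGAM, the latter at 4.51 to 6.06 FPKM, while CD14 did not exceed 0.058 FPKM. Of 6 epithelial and fibroblast markers, PDGFRB alone was tested, at 51.4 to 68.1 FPKM. The third T cell marker tested, CD3D, stayed under 1 FPKM. The tested T cell, B cell and myeloid markers all had log2 fold changes above 0, with medians of 0.23 over 3 genes, 0.68 over 2 and 0.46 over 2, and 0 of them had an unadjusted p under 0.05. Their part in the results below was not tested.

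The subunit genes were strongly expressed. Their median of mean FPKM over the 4 libraries was 116, against 11.3 for all genes tested, and 46 of the 80 had a mean of at least 100 FPKM. The highest was ATP5F1B, the catalytic beta subunit of ATP synthase, with 597 FPKM, and the lowest was NDUFV3, an accessory subunit of complex I, with 4.81 FPKM. The median was 91.4 FPKM for complex I, 98.3 for complex II, 122 for complex III, 262 for complex IV and 183 for complex V. These medians are over tested members and leave out 7 untested members of complex IV, 1 of complex III and 1 of complex V. Together the members took 1.80% and 2.15% of all FPKM in NK scramble libraries 1 and 2 and 1.94% and 2.21% in NK shADAR1 libraries 1 and 2. In each group the share was larger in library 2, and the groups overlapped. Of the 80, 23 had counts that were not whole numbers, a sign of reads shared with other genes, and their values are less certain.

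Isoforms known from other tissues had no or few counts in the line. COX4I1, the ubiquitous form of the largest nuclear subunit of complex IV, had a mean of 405 FPKM, while its paralog COX4I2 had 0 counts in all 4 libraries. The muscle forms COX6A2 and COX7A1 and the testis forms COX7B2 and COX8C were likewise at 0 counts, where their ubiquitous partners COX6A1, COX7A2, COX7B and COX8A had means of 456, 238, 63.5 and 437 FPKM. The 3 counts that a count of 0 allows correspond to 0.0751 to 0.0792 CPM before TMM scaling in these libraries. COX6B2, a testis form, had 1 count in NK scramble library 2 and 1 in NK shADAR1 library 1, and its partner COX6B1 had 334 FPKM. NDUFA4L2, a paralog of NDUFA4 known as a hypoxia-induced gene, had 12, 4, 0 and 4 counts in NK scramble 1 and 2 and NK shADAR1 1 and 2. UQCRHL, a near copy of UQCRH whose reads could be shared with it, had 5 to 11 counts, and ATP5MGL had 1 count in a single library. These 9 genes were not tested. The 5 genes at 0 counts were so in both groups.

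To see whether the knockdown changed the chain, NK shADAR1 cells were compared with NK scramble cells gene by gene. None of the 80 tested members was called (adjusted p under 0.05 together with a fold of 1.5 or more), and neither was any other gene, so the background was 0.0% of 11810 genes. The smallest adjusted p was 1.00. With the replicate number added to the model as a block, 13 of all genes were called and 0 of the members. Without the block, edgeR gave 293 of all genes at an unadjusted p under 0.05. The share higher in NK shADAR1 cells was 1.7% and the share lower was 0.779%. A single member, NDUFB1, was among those higher and 0 were among those lower. DESeq2 gave 275 genes at an unadjusted p under 0.05 and 0 of them were members. The members' median log2 fold change was 0.06, against 0.00 for all genes, with 54 members above 0 and 26 below it. The values ran from -0.22 for NDUFAB1 to 0.55 for ATP5ME, and 0 members reached a fold of 1.5. The median standard error of a single member was 0.23. The sign of that median depended on single libraries, since it was 0.24 without NK shADAR1 library 1, -0.17 without NK shADAR1 library 2, -0.10 without NK scramble library 1 and 0.22 without NK scramble library 2. RNA was measured in bulk, so fewer expressing cells and less RNA per cell cannot be told apart.

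**Figure D1:**
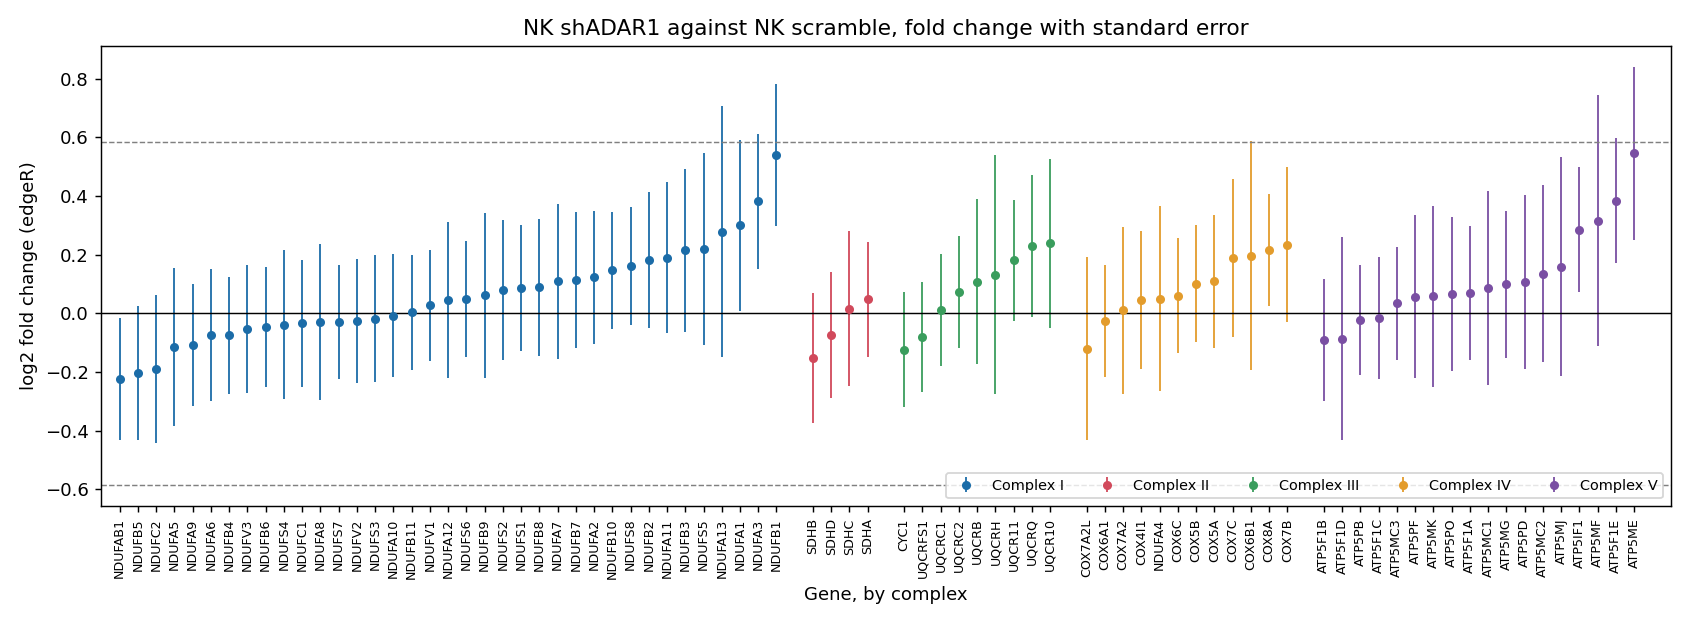
Each point is the edgeR log2 fold change of a tested subunit gene, NK shADAR1 against NK scramble, with its standard error as a bar (2 libraries per group). Genes are ordered within complexes I to V, and dashed lines mark a fold of 1.5. All 80 points lie between the dashed lines, from -0.22 to 0.55.

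The 4 largest values belonged to ATP5ME, NDUFB1, ATP5F1E and NDUFA3, with lengths implied by counts and FPKM of 303, 321, 3395 and 442 bases. ATP5ME, the e subunit of the ATP synthase membrane part, was at 12.6 and 23.9 CPM in NK scramble libraries 1 and 2 and at 23.4 and 29.8 CPM in NK shADAR1 libraries 1 and 2. The groups overlapped narrowly, because NK scramble library 2 was level with NK shADAR1 library 1. Its log2 fold change was 0.55 (SE 0.30, edgeR adjusted p = 1.00). NDUFB1, an accessory subunit of the complex I membrane arm, was at 11.3 and 16.1 CPM in the controls and at 18.3 and 21.5 CPM in the knockdown. Its groups did not overlap, and the log2 fold change was 0.54 (SE 0.24, unadjusted p = 0.0482 in edgeR across all genes, adjusted p = 1.00). NDUFA3, another accessory subunit of that arm, had 21.3 and 30.7 CPM against 31.5 and 36.1 CPM, which gave a log2 fold change of 0.38 (SE 0.23). Here the groups were separated by less than the gap between the control libraries. ATP5F1E, the epsilon subunit of the ATP synthase stalk, had 80.7 and 105 CPM against 130 and 112 CPM and a log2 fold change of 0.38 (SE 0.21). This gene and NDUFA3 were among those with counts that were not whole numbers. After the relation with transcript length had been regressed out of each library, the log2 fold changes were 0.24 for ATP5ME, 0.21 for NDUFB1, 0.17 for NDUFA3 and 0.35 for ATP5F1E. Single libraries moved these values, which were 0.15, 0.31, 0.14 and 0.20 for ATP5ME, NDUFB1, NDUFA3 and ATP5F1E without NK scramble library 1 and 1.08, 0.81, 0.66 and 0.58 without NK scramble library 2. Without NK shADAR1 library 2 they were 0.36, 0.42, 0.28 and 0.49, and without NK shADAR1 library 1 they were 0.71, 0.65, 0.48 and 0.27.

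At the other end, NDUFAB1, the mitochondrial acyl carrier protein that is also a complex I subunit, was at 107 and 85.6 CPM in NK scramble libraries 1 and 2 and at 88.0 and 76.7 CPM in NK shADAR1 libraries 1 and 2. Its log2 fold change was -0.22 (SE 0.21), with overlapping groups, and ran from -0.058 without NK scramble library 1 to -0.38 without NK scramble library 2. NDUFB5, a membrane arm subunit, had 120 and 132 CPM against 87.6 and 131 CPM (log2 fold change -0.20, SE 0.23). NDUFC2 had 64.4 and 81.4 CPM against 49.3 and 78.5 CPM (log2 fold change -0.19, SE 0.25), and reads of its readthrough gene with KCTD14 may be split from it. In both genes NK shADAR1 library 1 alone stood below the other libraries, and without it the log2 fold changes were 0.06 and 0.11. Of the 80 members, 5 had both NK shADAR1 libraries above both controls (13.3% of all genes did) and 0 had both below (12.6% of all genes). The 5 were NDUFB1, NDUFA3, COX8A, ATP5F1E and ATP5IF1, the inhibitor of ATP synthase, a set listed after the values were seen.

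The libraries in which subunit transcripts were high were mostly those numbered 2, in control and knockdown alike. Both libraries numbered 2 exceeded both numbered 1 for 60 of the 80 members, where 24.3% of all genes did so. The reverse order, with both libraries numbered 1 on top, was found for 6 members, where 22.3% of all genes showed it. After each gene's mean log2 CPM over the libraries had been subtracted, the members' median was -0.19 in NK scramble 1, 0.16 in NK scramble 2, -0.18 in NK shADAR1 1 and 0.23 in NK shADAR1 2. Library 2 exceeded library 1 by a median log2 difference of 0.37 in NK scramble cells (65 of 80 members) and of 0.39 in NK shADAR1 cells (70 of 80 members), equal to 1.29-fold and 1.31-fold. For 69 members this difference, averaged over the groups, was larger in size than the difference between the groups, as it was for 59.6% of all genes. What the number stands for in the laboratory is not given in the labels, and a source of the pattern was not tested. With 2 libraries of each number, 0.333 is the smallest two-sided p of an exact permutation test, and these values are descriptions.

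**Figure D2:**
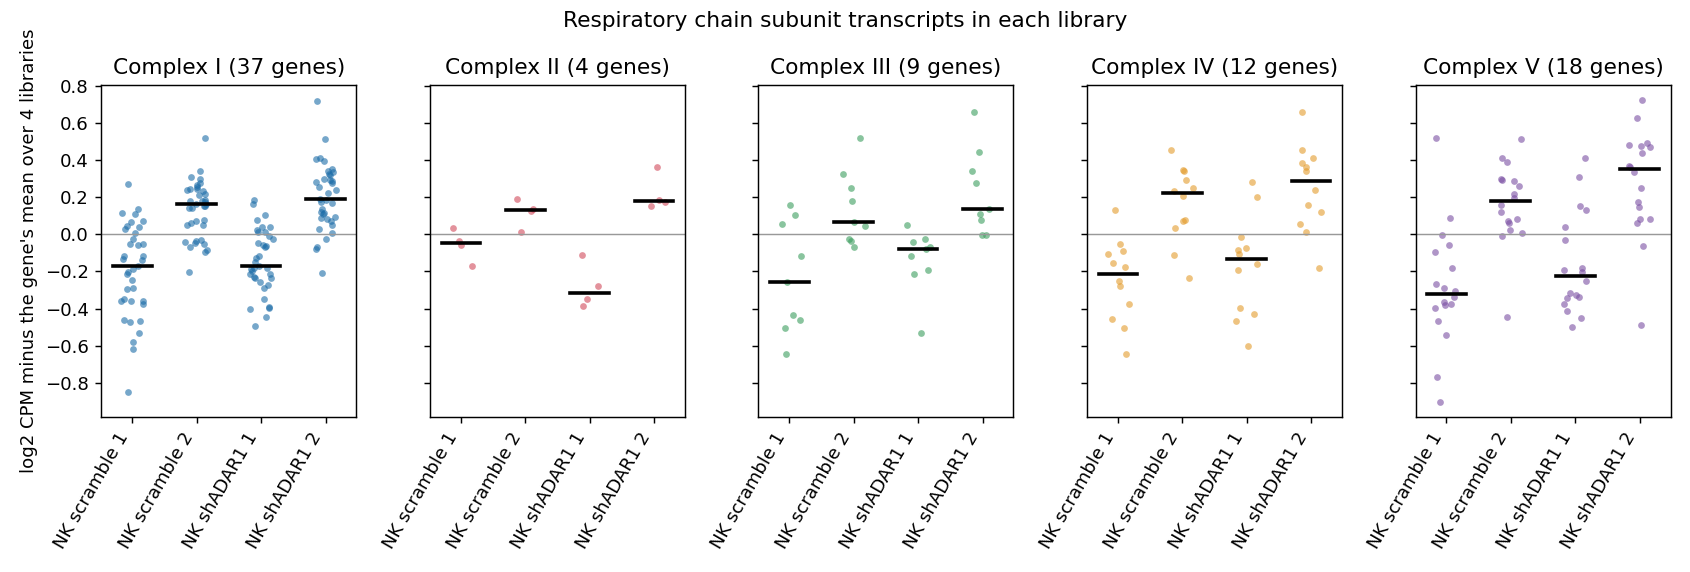
The vertical axis is log2 CPM minus the gene's own mean over the 4 libraries, each point is a tested subunit gene and black lines are medians. In each of the 5 complexes the medians of both libraries numbered 2 lie above 0 and those of both numbered 1 lie below it.

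The same division of the libraries was seen in all 5 complexes. Both libraries numbered 2 were on top for 27 of 37 members of complex I, 4 of 4 of complex II, 6 of 9 of complex III, 10 of 12 of complex IV and 13 of 18 of complex V. Between the hairpins, the median log2 fold changes were 0.04, -0.03, 0.11, 0.08 and 0.08 for complexes I to V. Each of these medians was below 0 without NK shADAR1 library 2 and above 0 without NK shADAR1 library 1. Across the 80 members, the difference between library 2 and library 1 in NK scramble cells correlated with that in NK shADAR1 cells at r = 0.78. The same r was 0.31 over all genes tested, 0.80 over the cytosolic and 0.75 over the mitochondrial ribosomal protein genes. These are correlations over genes that share the same 4 libraries, and they have no p.

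**Figure D3:**
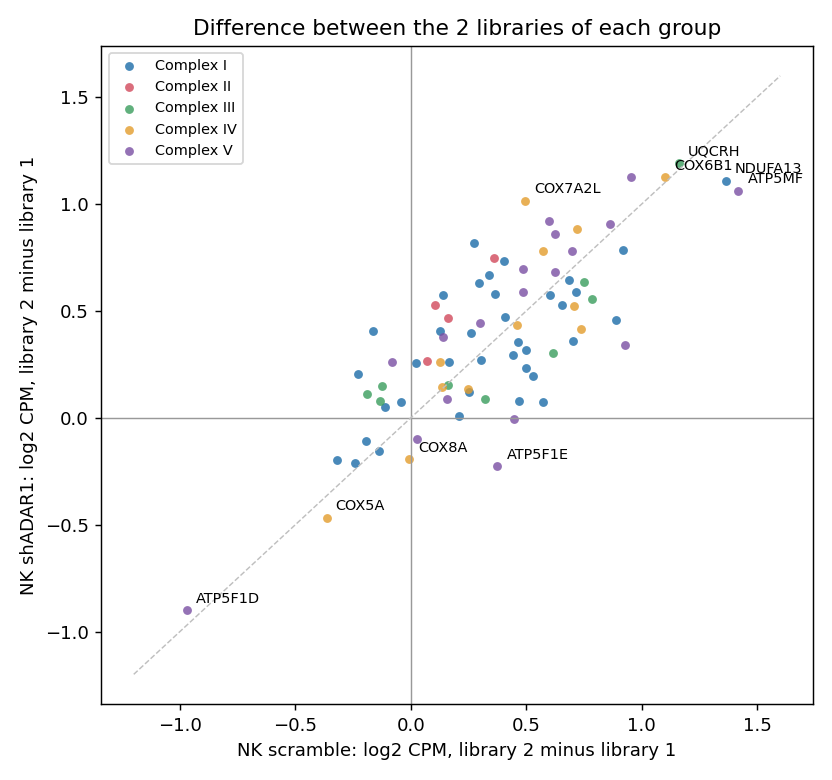
Each point is a tested subunit gene, with the log2 CPM difference of library 2 minus library 1 in NK scramble cells on the horizontal axis and in NK shADAR1 cells on the vertical axis, colored by complex. Most points lie at the upper right along the dashed line of equal differences (r = 0.78 over 80 genes), and ATP5F1D and COX5A lie at the lower left.

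The 4 members with the widest gaps, chosen after the values were seen, came from different complexes. ATP5MF, the f subunit of the ATP synthase membrane part, was at 192 and 222 CPM in the libraries numbered 2 of NK scramble and NK shADAR1 and at 71.8 and 106 CPM in those numbered 1. NDUFA13, a complex I subunit also known as GRIM-19, was at 123 and 142 CPM in libraries 2 and at 47.8 and 65.6 CPM in libraries 1. In both genes the lowest library was NK scramble 1, and the libraries differed more than 2-fold within each group. UQCRH, the hinge protein of complex III, had 232 and 255 CPM in libraries 2 and 104 and 112 CPM in libraries 1. COX6B1, which lies where the complex IV dimer meets, had 209 and 240 CPM in libraries 2 and 97.2 and 110 CPM in libraries 1. Their log2 fold changes between the groups were 0.32 (SE 0.43), 0.28 (SE 0.43), 0.13 (SE 0.41) and 0.20 (SE 0.39), so the spread within a group exceeded the difference between groups for each. After the length regression the value was 0.091 for ATP5MF, 0.14 for NDUFA13 and -0.013 for UQCRH. ATP5MF, NDUFA13 and UQCRH had counts that were not whole numbers, while those of COX6B1 were whole. In all, 15 members were at least 1.5-fold higher in library 2 in both groups, compared with 2.06% of all genes.

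A few members ran the other way, again named after their values were seen. ATP5F1D, the delta subunit of the ATP synthase stalk, was at 133 and 123 CPM in libraries 1 and at 68.0 and 66.0 CPM in libraries 2 of NK scramble and NK shADAR1. COX5A, a matrix-side subunit of complex IV, had 183 and 204 CPM in libraries 1 and 142 and 148 CPM in libraries 2. Both genes differed less between the hairpins than between the numbers, with log2 fold changes of -0.09 (SE 0.35) and 0.11 (SE 0.23). The other members with this order were NDUFAB1, NDUFB11, NDUFS7 and NDUFS8, the last a carrier of iron-sulfur clusters in the complex I arm that takes up electrons. Other members were steadier. NDUFV1, which binds NADH and FMN, had 278, 270, 272 and 287 CPM across NK scramble 1 and 2 and NK shADAR1 1 and 2, and ATP5PB, a part of the ATP synthase stator also chosen by its values, had 240, 244, 246 and 230 CPM. ATP5F1B had 1100 and 1039 CPM in the controls and 913 and 1096 CPM in the knockdown, so that NK shADAR1 library 1 was the lowest.

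Complex II has only nuclear subunits, and its members formed a small set of their own. SDHA, the flavoprotein that oxidizes succinate, had 163 and 172 CPM in the control libraries 1 and 2 and 157 and 189 CPM in NK shADAR1 1 and 2. SDHB, the iron-sulfur subunit, had 122 and 131 CPM against 93.3 and 134 CPM. The membrane anchors SDHC and SDHD had 73.3 and 94.2 against 63.2 and 106 CPM, and 153 and 171 against 130 and 179 CPM. NK shADAR1 library 1 was the lowest and NK shADAR1 library 2 the highest library for each of the 4 genes. The knockdown replicates therefore enclosed the controls, and the log2 fold changes were 0.05 (SE 0.20), -0.15 (SE 0.22), 0.02 (SE 0.26) and -0.07 (SE 0.22) for SDHA, SDHB, SDHC and SDHD.

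The ubiquitous isoforms of complex IV and the c ring genes of ATP synthase followed the library number to different extents. COX4I1 had 258 and 354 CPM in the control libraries 1 and 2 and 268 and 363 CPM in NK shADAR1 1 and 2 (log2 fold change 0.04, SE 0.23). COX7A2L, a factor that joins complexes III and IV, had 66.6 and 93.9 CPM against 48.8 and 98.8 CPM (log2 fold change -0.12, SE 0.31). COX7A2, COX7B and NDUFA4 had log2 fold changes of 0.01, 0.23 and 0.05, each with both libraries numbered 2 on top. COX6A1 differed little across the series, with 236, 259, 231 and 255 CPM. COX8A had 200 and 199 CPM in the controls and 247 and 216 CPM in the knockdown (log2 fold change 0.22, SE 0.19), an order that followed the hairpin. The value was 0.019 after the length regression and 0.12 to 0.31 with a library left out. ATP5MC1, ATP5MC2 and ATP5MC3 encode the same mature c subunit with different import sequences. ATP5MC1 had 115 and 209 CPM against 120 and 224 CPM, and ATP5MC2 had 55.0 and 84.8 CPM against 54.6 and 99.0 CPM. ATP5MC3 was more even, with 237 and 264 CPM against 249 and 265 CPM. Their log2 fold changes between the hairpins were 0.09, 0.14 and 0.03. The remaining member named for its level, UQCRB, a ubiquinone-binding subunit of complex III, had 149 and 257 CPM against 177 and 261 CPM.

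Subunit transcripts are short, and short transcripts as a class differed between the libraries in the same direction. The length implied by the ratio of counts to FPKM had a median of 713 bases for the members and of 2608 bases for all genes tested. Among the 498 genes shorter than 800 bases, library 2 exceeded library 1 by a median log2 difference of 0.38 in NK scramble cells and 0.31 in NK shADAR1 cells, and both libraries numbered 2 were on top for 59.0% of them. The 45 members in this class had medians of 0.57 and 0.46, with 36 of them in that order. Between 1500 and 3000 bases, all genes had medians of -0.04 and 0.03 and the 12 members had 0.29 and 0.41. The members' medians lay above those of all genes in both classes. When the relation with length was regressed out of each library, the members' median differences became 0.17 in NK scramble cells and 0.28 in NK shADAR1 cells, and 48 of the 80 had both libraries numbered 2 on top, against 3234 of all 11810 genes. Regressing out annotated (GENCODE) transcript length, in place of the implied length, together with GC content gave 0.19 and 0.27. Over the 80 members, Spearman's rho of length with the difference between the numbers was -0.35, and with the log2 fold change between the hairpins it was -0.51, both as descriptions over genes of the same libraries. The median log2 fold change of the members was -0.01 after the length regression. Whether length itself set the pattern was not tested.

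**Figure D4:**
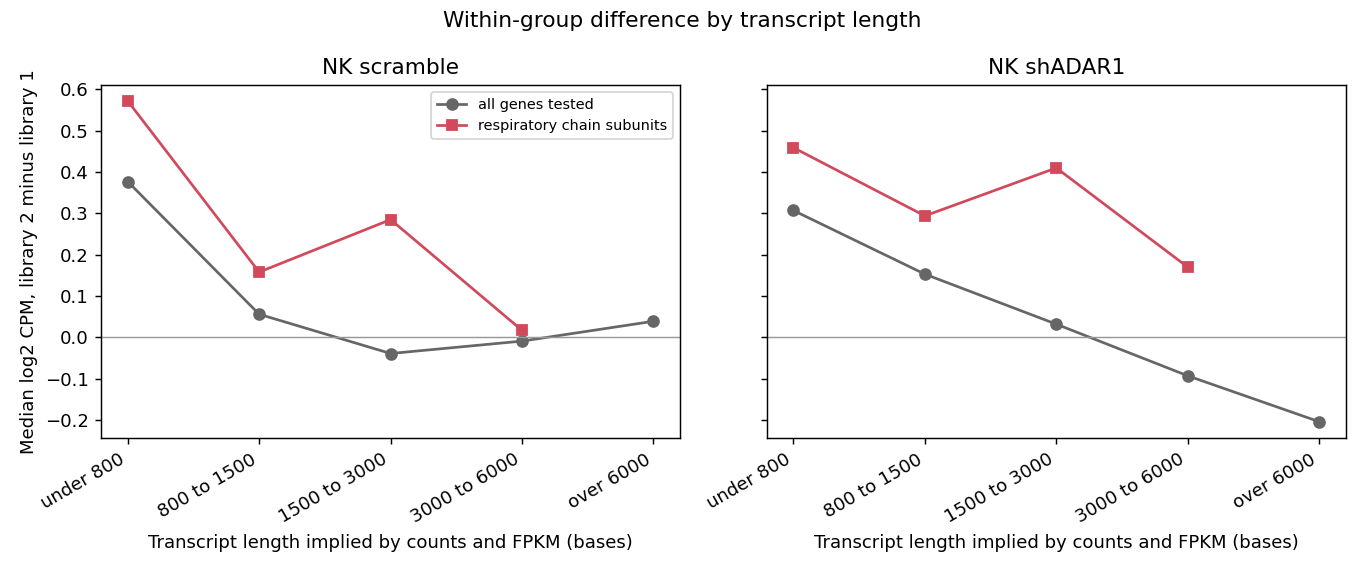
Median log2 CPM of library 2 minus library 1 by class of transcript length in bases, for all genes tested (grey circles) and for the respiratory chain subunits (red squares), in NK scramble cells on the left and NK shADAR1 cells on the right. Genes shorter than 800 bases have medians of 0.38 and 0.31 and the subunits among them 0.57 and 0.46, and no subunit is longer than 6000 bases.

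The subunits made inside the mitochondrion were compared next. The 13 subunits encoded by mtDNA took 8.29% and 6.85% of all FPKM in NK scramble 1 and 2 and 8.10% and 7.85% in NK shADAR1 1 and 2. In each group this share was smaller in library 2, opposite to the nuclear subunits. By CPM per gene the groups differed. The median log2 difference of library 2 minus library 1 was -0.34 in NK scramble cells, with 4 of 13 genes higher in library 2. In NK shADAR1 cells it was 0.21, with 10 of 13 genes higher in library 2, the direction of the nuclear subunits. Both libraries numbered 2 were on top for 3 of the 13, and their median log2 fold change between the hairpins was 0.07. MT-ND4L, a core subunit of complex I whose reading frame overlaps that of MT-ND4, had 232 and 246 CPM in the controls and 347 and 344 CPM in the knockdown. It was the mtDNA-encoded gene with the highest value, with a log2 fold change of 0.54 (SE 0.19, unadjusted p = 0.0178 in edgeR across all genes, adjusted p = 1.00). MT-ND6, the subunit transcribed from the other strand, had 489 CPM in NK scramble library 1 and 222, 295 and 254 CPM in NK scramble 2 and NK shADAR1 1 and 2. Its log2 fold change of -0.37 (SE 0.32) rested on NK scramble library 1 and was 0.30 without it. The counting is not stated to use strand, so reads from the opposite strand may be included.

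Lists of genes that serve the chain were compared by the same counts. None of their genes was called, and 0 passed at an unadjusted p under 0.05 in either direction. Of 51 assembly factors, 36 were lower in NK shADAR1 cells, with a median log2 fold change of -0.09 and 29 genes with both libraries numbered 2 on top. Their median centred log2 CPM (minus each gene's mean over the 4 libraries) was -0.045 and 0.12 in NK scramble 1 and 2, -0.15 in NK shADAR1 1 and 0.076 in NK shADAR1 2, so NK shADAR1 library 1 stood lowest and library 2 lay between the controls. PET100, a complex IV assembly factor, was at 0.41 (SE 0.37) and TMEM70, an ATP synthase assembly factor, at -0.40 (SE 0.20) on the log2 fold change scale. Of 21 electron carriers and nucleotide exchangers, 15 were lower, from GPD2, the mitochondrial glycerol phosphate dehydrogenase, at 0.33 (SE 0.22) to cytochrome c (CYCS) at -0.34 (SE 0.24). The list's median centred log2 CPM was -0.041 and 0.079 in the controls, -0.15 in NK shADAR1 1 and 0.11 in NK shADAR1 2, the lowest and the highest of the libraries. CYCS was at -0.054 without NK shADAR1 library 1 and GPD2 at 0.14 without NK scramble library 1. The 17 tricarboxylic acid cycle genes had a median of -0.05, from DLD at 0.27 (SE 0.20) to IDH3A at -0.30 (SE 0.20), and 6 had both libraries numbered 2 on top. DLD was at 0.17 without NK scramble library 2 and IDH3A at -0.17 without NK shADAR1 library 1. DLD is the lipoamide dehydrogenase shared by several dehydrogenase complexes and IDH3A a subunit of isocitrate dehydrogenase. Of 16 tested regulators of mitochondrial biogenesis, 13 were lower, with a median of -0.11 and median centred log2 CPM of 0.052 and 0.00 in the controls and -0.069 and -0.034 in the knockdown. GABPA, the DNA-binding subunit of nuclear respiratory factor 2, was at 0.38 (SE 0.23), and MYC had 558 and 378 CPM in the controls and 319 and 350 CPM in the knockdown (log2 fold change -0.48, SE 0.23). MYC was at -0.18 without NK scramble library 1 and GABPA at 0.15 without NK scramble library 2. PPARGC1A, a coactivator of this program in muscle and fat, did not exceed 0.041 FPKM and was not tested.

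Ribosomal protein genes are likewise short and abundant. Of 86 cytosolic ribosomal protein genes tested, 78 (90.7%) had both libraries numbered 2 on top, with median log2 differences between the numbers of 0.39 in NK scramble cells and 0.52 in NK shADAR1 cells and a median log2 fold change of 0.04. RPS27, a small subunit protein, had 355 and 592 CPM in the control libraries 1 and 2 and 528 and 658 CPM in NK shADAR1 1 and 2, while its log2 fold change was 0.33 (SE 0.26). RPL22L1, a paralog of a large subunit protein, was the lowest at -0.32 (SE 0.25). Without NK scramble library 1 RPS27 was at 0.00012, and without NK shADAR1 library 1 RPL22L1 was at -0.075. Of 77 mitochondrial ribosomal protein genes, 47 had this order, the median log2 fold change was -0.06 with NK shADAR1 library 1 the lowest by median centred log2 CPM (-0.19), and values ran from MRPL54 at 0.31 (SE 0.34) to MRPL19 at -0.40 (SE 0.21). The type I interferon markers did not share the order. Of these 12 genes 8 were lower in NK shADAR1 cells at an unadjusted p under 0.05 in edgeR, none of which passed adjustment, with a median log2 fold change of -1.08, and 0.779% of all genes were lower at that p. After each gene's mean had been subtracted, their median log2 CPM was 0.63 and 0.59 in NK scramble 1 and 2, -0.015 in NK shADAR1 1 and -1.30 in NK shADAR1 2, so NK shADAR1 library 2 stood lowest. None of the 12 had both libraries numbered 2 on top.

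Motifs of factors known to act on respiratory genes were looked for in the promoters, taken as 250 bases before to 50 bases after the RefSeq start (GRCh38.p14), which 66 of the 80 tested members had. The letters searched on both strands were GCGCATGCG for nuclear respiratory factor 1 (NRF1), CCGGAAG for the ETS family that includes GABPA, and AAGATGGC for YY1. The NRF1 letters were found in 10 of the 66 (15.2%), the ETS letters in 20 (30.3%) and the YY1 letters in 11 (16.7%), compared with 2.1%, 10.7% and 3.03% of all 27305 promoters and 3.99%, 20.2% and 5.8% of the 9535 promoters of tested genes. At least 1 of the 3 was present in 34 members (51.5%), against 27.3% of tested genes. The sites below are examples of each motif in members described above. Each is 30 bases, read 5′ to 3′ on the strand of the gene, with the match in capitals.
UQCRH, chr1:46303641-46303670, plus strand, ETS: agtgtgccgcaCTTCCGGccagatcgccgg
COX6B1, chr19:35648300-35648329, plus strand, ETS: acctctctcagCTTCCGGctggtagtagtt
NDUFA13, chr19:19516204-19516233, plus strand, ETS: tccgcccgggaCCGGAAGtgtgggatactg
COX8A, chr11:63974591-63974620, plus strand, ETS: cagctccagaaCTTCCGGccagcgcagcca
ATP5MC2, chr12:53676105-53676134, minus strand, NRF1: gcccgggtcaCGCATGCGCtgagccttcct
ATP5ME, chr4:674335-674364, minus strand, NRF1: gccgctgacgGCGCATGCGtgcgcccagct
ATP5PB, chr1:111449451-111449480, plus strand, YY1: acttgtgagcgGCCATCTTggtcctgccct
The matches began 46, 12, 10, 18, 41, 78 and 2 bases before the start of UQCRH, COX6B1, NDUFA13, COX8A, ATP5MC2, ATP5ME and ATP5PB. UQCRH, COX6B1 and NDUFA13 had some of the widest gaps between the libraries of a group, whereas COX8A, with the same ETS letters, had log2 differences of library 2 minus library 1 of -0.01 in NK scramble cells and -0.19 in NK shADAR1 cells. Members with the ETS letters had a median log2 difference between the numbers of 0.45 and those without them 0.31, and the medians with and without were 0.29 and 0.37 for NRF1 and 0.36 and 0.37 for YY1. The median log2 fold changes between the hairpins, with and without the letters, were 0.10 and 0.05 for ETS, -0.02 and 0.09 for NRF1 and -0.02 and 0.09 for YY1. A match is a description of letters and says nothing of binding, which was not measured.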

How the data were processed

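RNA-seq of 4 NK-92 libraries was analysed. Per the labels, reads were cleaned with fastp 0.18.0 (submitters' processing notes). The aligner, counting program and genome build are not given in the sources used here. The authors deposited estimated counts per gene (expected counts, not scaled for depth) and FPKM values (fragments scaled by transcript length and depth). Of 20323 Ensembl identifiers, 20301 matched a symbol. Counts were rounded, filtered with filterByExpr (minimum count 10), scaled by TMM and tested in R 4.3.3 with the quasi-likelihood test of edgeR 4.0.16 without covariates. P-values were adjusted by Benjamini-Hochberg over 11810 genes, and genes were called at an adjusted p under 0.05 and a fold of at least 1.5. A standard error is the size of the log2 fold change divided by the square root of F. At 37881704 to 39960491 counts per library, the spread between 2 libraries limited precision.

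Members and lists were chosen with earlier results of these data known. The genes named are ADAR, the 2 members of highest FPKM per complex, the 4 highest and 4 lowest fold changes, members with an unadjusted p under 0.05, complex II, isoform families and the extremes of each list. Others are said to be chosen by their values.

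Alternatives were DESeq2 1.42.0, limma 3.58.1 on log2(FPKM + 0.1) and log2(FPKM + 1), RLE and upper quartile scaling, other filters, libraries left out, the replicate number as a block, and regression on implied length with splines of 4 degrees of freedom. Regression on GENCODE length and GC content, and unadjusted p-values with DESeq2 or the block, were added after the data were seen. Scripts were tested on simulated data.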

Additional observations from a re-analysis of the deposited data

How the results depend on the processing

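No respiratory chain subunit was called at an adjusted p under 0.05 under any setting tried. Among all genes the count called, 0 in the edgeR fit, was 13 with the replicate number as a block, 213 with unadjusted p, 306 with the block and unadjusted p, 183 with DESeq2 and unadjusted p, and 1 to 47 with a library left out. A lone library is then assumed to vary like the pair of the other group. With unadjusted p and the block, 1 subunit, ATP5ME, also reached the fold threshold (log2 fold change 0.61, adjusted p = 0.438 in edgeR). The pairing by number was checked by the correlation over all tested genes of the difference between libraries 2 and 1 in the 2 groups, which was 0.31. The numbers are all that the samples are known to share, and the block lowered the biological coefficient of variation from 0.201 to 0.151.

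The members' median of 0.06 was 0.055 to 0.072 under the other scalings, filters and tools and the block, -0.013 with the length regression and 0.02 with length and GC content. With a library left out, it ran from -0.17 to 0.24, that of complex I from -0.17 to 0.18, of complex II from -0.37 to 0.16, of complex III from -0.092 to 0.25, of complex IV from -0.11 to 0.25 and of complex V from -0.23 to 0.39. Of 602 values for 43 named genes, 546 kept their direction, 56 turned and 0 became called. The log2 fold change turned to -0.013 for UQCRH, -0.025 for COX4I1, -0.00095 for SDHC, -0.209 for COX7A2 and -0.039 for ATP5MC1 with the length regression. With length and GC content it turned to -0.11 for SDHC, -0.082 for COX7A2, -0.039 for ATP5MC1 and -0.042 for ATP5MC3. With the block it turned to -0.020 for SDHC and -0.013 for COX7A2. On log2(FPKM + 0.1) and log2(FPKM + 1) it turned to -0.0057 and -0.0052 for SDHC and to -0.00048 and -0.00043 for COX7A2. The cause was not tested.

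With each library left out in turn, the log2 fold change ran from -0.013 to 0.065 for NDUFV1, -0.39 to 1.11 for NDUFA13, -0.33 to 0.14 for SDHD, -0.44 to 0.088 for SDHB, -0.59 to 0.82 for UQCRH, -0.23 to 0.55 for UQCRB, -0.10 to 0.045 for COX6A1 and -0.23 to 0.036 for ATP5F1B. It ran from -0.32 to 1.19 for ATP5MF, -0.52 to 0.057 for NDUFB5, -0.57 to 0.11 for NDUFC2, -0.095 to 0.18 for SDHA, -0.41 to 0.34 for SDHC, -0.19 to 0.29 for COX4I1, -0.48 to 0.84 for COX6B1, -0.43 to 0.35 for COX7A2 and -0.72 to 0.30 for COX7A2L. The range was -0.092 to 0.64 for COX7B, -0.46 to 0.45 for NDUFA4, -0.44 to 0.57 for ATP5MC1, -0.36 to 0.50 for ATP5MC2, -0.045 to 0.11 for ATP5MC3, -0.84 to 0.30 for MT-ND6, -0.055 to 1.08 for PET100 and -0.12 to 0.92 for MRPL54.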
